A study of Mus musculus with 2 samples.

Results

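The 10 genes described here encode the enzymes and the transporter that bring arginine into cells and turn it into nitric oxide, urea or polyamines: Arg1, Arg2, Nos2, Ass1, Asl, Odc1, Slc7a2, Sat1, Srm and Sms. They were chosen by name as a pathway, with earlier results of these data known, and all 10 were found among the 32291 genes of the table. Their mRNAs were followed through 11 annotated cell types of colitis-associated colon tumors (CACs) from mice, in 1 single-cell RNA sequencing library per genotype. CACs were induced with azoxymethane (AOM, 10 mg/kg), a carcinogen, and 3 courses of dextran sodium sulfate (DSS, 2.5% and finally 2%), which injures the colon lining. Mice were 6 to 10 weeks old at the start, and tumors were taken on day 110.

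The Mir34a_F/F mice carry floxed alleles of the gene for the microRNA miR-34a and served as controls. The Mir34a_Mye_KO mice carry the same floxed alleles and LysM-Cre, which is active in the myeloid lineage (macrophages, monocytes, neutrophils) and not in all myeloid cells to the same extent. For each genotype, 6 to 8 tumors from 3 female mice were pooled, so that no spread between mice can be given. Differences between the libraries were therefore not tested, and all intervals are 95% intervals that cover counting error only. They do not cover variation between mice, dissociation or library preparation. Intervals of levels and ratios also leave out differences between cells of a type. They are too narrow for that spread where few cells hold most UMIs of a gene.

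Arginine stands at a branch point. Arginases cleave it to urea and ornithine, and ornithine decarboxylase then makes putrescine, from which spermidine and spermine are built. Inducible nitric oxide synthase instead oxidizes it to nitric oxide and citrulline, and argininosuccinate synthase and lyase can turn citrulline back into arginine. In macrophages, arginase 1 and inducible nitric oxide synthase compete for this substrate, and both are widely used as markers of macrophage activation. Polyamines bind nucleic acids and are needed by dividing cells.

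Because miR-34a was the target of the deletion, the genes were searched for its seed match. The mature miR-34a from RefSeq (GRCm38.p6) is shown 5′ to 3′ with its seed, bases 2 to 8, in capitals, followed by both matches found in the longest annotated 3′ UTR of the genes (mm10, capitals mark the match).
miR-34a-5p: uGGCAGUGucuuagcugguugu
Slc7a2, first match: aaaggcgtgtgccacCACTGCCtgaccatt
Slc7a2, second match: taccacagctgaagcCACTGCCacaatttc
The 7-base match, CACTGCC on the sense strand, was present at chr8:40917879-40917885 and chr8:40921308-40921314 (plus strand), both in the 5774-base 3′ UTR of Slc7a2. Among the 450 genes with a 3′ UTR of 5000 to 6500 bases, 40.2% held the match. The other 9 genes had none, 8 of them with 3′ UTRs of 255 to 502 bases and Sms with 2282 bases. For comparison, 4.86% of genes with 3′ UTRs of 200 to 600 bases, 23.1% of those with 2000 to 2600 bases and 14.3% of all 21021 genes with an annotated 3′ UTR held it. A match describes letters in this window and not a working site.

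The libraries held 20312 (Mir34a_F/F) and 18571 (Mir34a_Mye_KO) cells with medians of 4787 and 7716 unique molecular identifiers (UMIs, each standing for 1 captured mRNA molecule) per cell. Within cell types, the median depth was higher in the Mir34a_Mye_KO library in all 11 types, for example 7252 against 11227 UMIs in macrophages and 3664 against 20852 in B cells. The 2 libraries shared 96 cell barcodes. All 4 markers of each cell type had their highest level in that type in both libraries, except Gata2 of basophils in the Mir34a_Mye_KO library. The primary transcript of Mir34a had 133 UMIs (111 to 158) in macrophages of the Mir34a_F/F library and 462 (421 to 506) in those of the Mir34a_Mye_KO library. Its levels in these deeper and more numerous Mir34a_Mye_KO macrophages and in Mir34a_F/F macrophages were 0.111 and 0.0723, so it did not show the labelled deletion. Whether the deletion would lower the UMIs counted for this transcript was not tested. Lyz2, whose locus carries the Cre in LysM-Cre mice, gave 3892 and 1379 UMIs in the same cells, with levels of 1.44 and 0.371, and was also lower in neutrophils (0.245 and 0.0773) and epithelial cells (0.0344 and 0.0182) of the Mir34a_Mye_KO library. The directions below rest on the labels of the libraries. A level gives how many of each 10000 UMIs belonged to the gene, averaged over the cells, and a ratio is the log2 of the Mir34a_Mye_KO level over the Mir34a_F/F level.

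**Figure D1:**
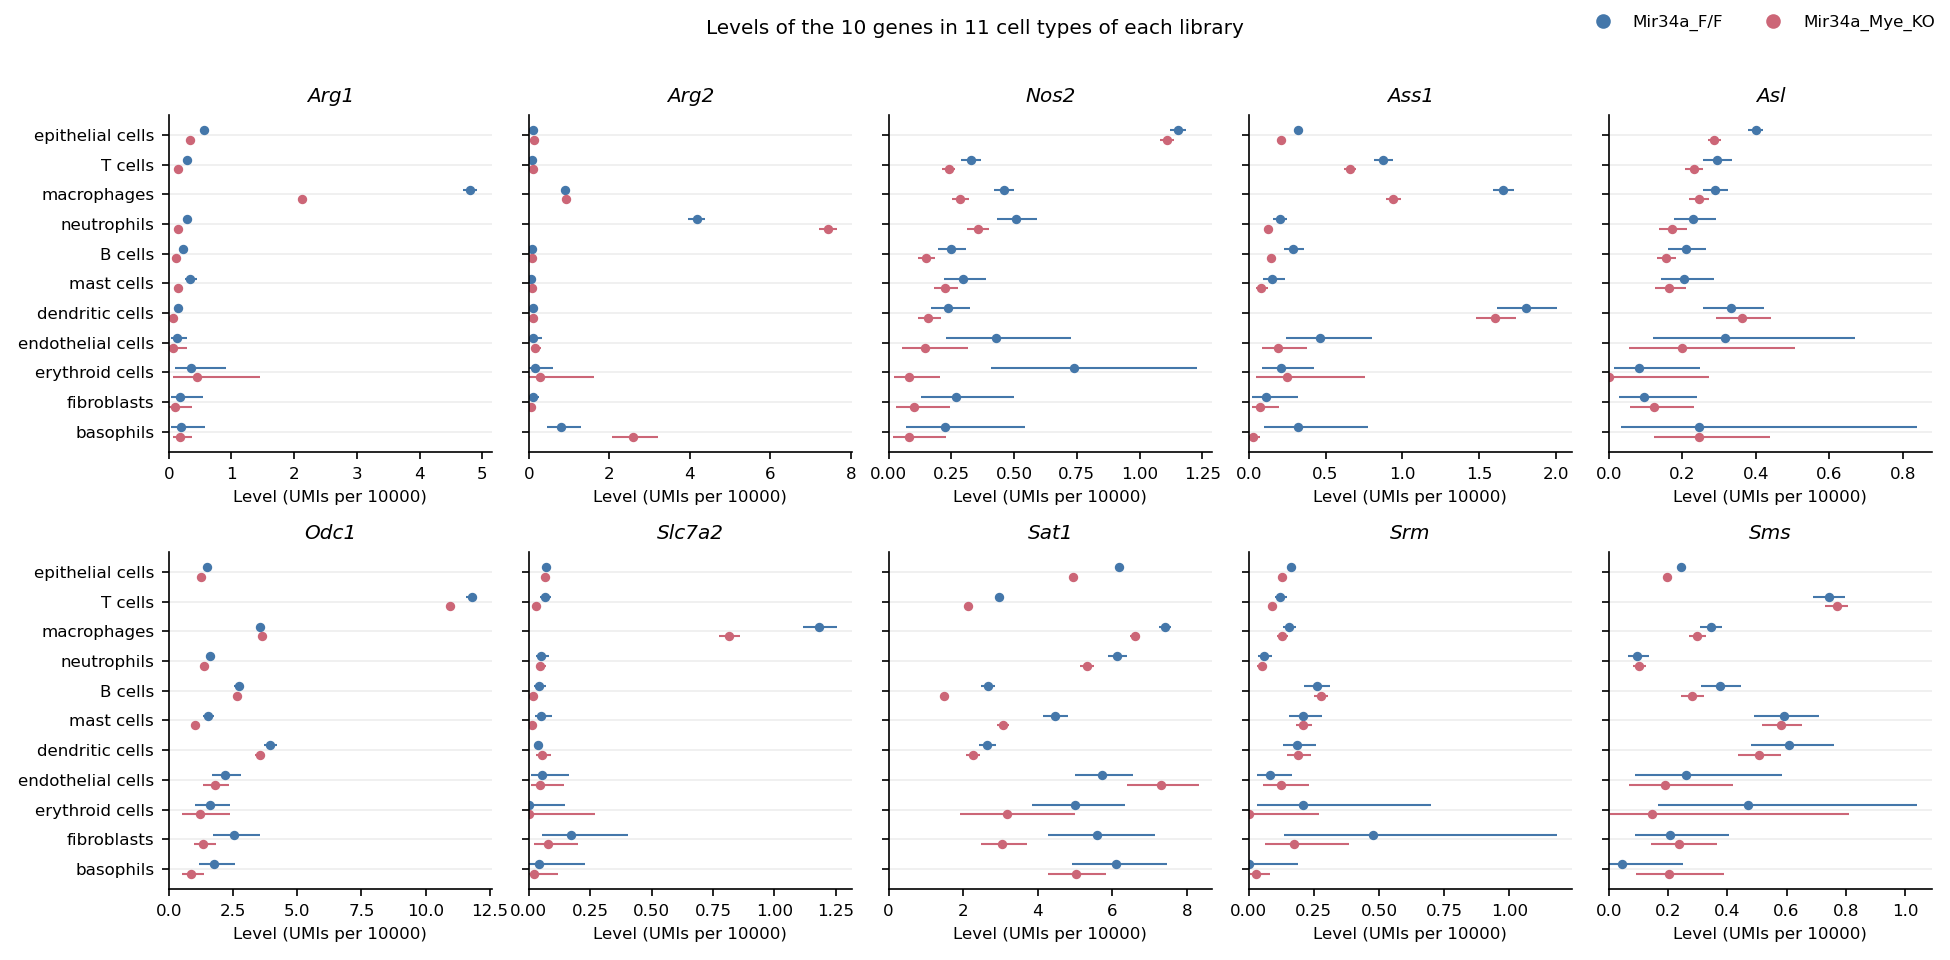
Level (horizontal axis, UMIs per 10000 UMIs of the cell, mean over cells) of each of the 10 genes in 11 cell types, blue for Mir34a_F/F and red for Mir34a_Mye_KO, with 95% counting intervals as bars. Arg1 and Slc7a2 stand out in macrophages, Arg2 in neutrophils, Nos2 in epithelial cells, Ass1 in dendritic cells and macrophages, and Odc1 in T cells.

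Arg1, the cytosolic arginase, was foremost a macrophage mRNA and was lower in the Mir34a_Mye_KO library. Its level in macrophages was 4.80 (4.69 to 4.91, 11990 UMIs in 2208 cells) in the Mir34a_F/F library and 2.12 (2.06 to 2.19, 7822 UMIs in 2601 cells) in the Mir34a_Mye_KO library. The log2 ratio was -1.18 (-1.23 to -1.12), a 2.26-fold lower level. Arg1 was found in 41.7% and 26.7% of macrophages, and after thinning each cell to 1000 UMIs in 22.1% and 9.33%. The mRNA was held by few cells, since the 10% of macrophages with the most Arg1 UMIs had 76.8% of them in the Mir34a_F/F library and 92.2% in the Mir34a_Mye_KO library. Macrophages with at least 10 Arg1 UMIs made up 13.8% (12.4% to 15.3%) and 6.61% (5.69% to 7.64%). Single macrophages held up to 235 and 207 Arg1 UMIs.

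The lower Arg1 level was found at all depths of macrophages. When macrophages of each library were divided into 4 depth classes of about equal size, the level in the Mir34a_F/F library was 2.65, 4.36, 4.81 and 7.37 from the shallowest to the deepest class. In the Mir34a_Mye_KO library it was 1.21, 2.18, 2.98 and 2.14. Every class was thus lower than the class of the same rank, and the gap was widest among the deepest cells, whose median depths were 16457 and 25612.5 UMIs.

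Next after macrophages, Arg1 was found in epithelial cells in the Mir34a_F/F library, with a level of 0.568 (0.543 to 0.593) against 0.342 (0.323 to 0.362) in the Mir34a_Mye_KO library and a ratio of -0.73 (-0.83 to -0.63). Erythroid cells, with 106 and 30 cells, had intervals that overlapped those of epithelial cells in both libraries. In T cells the level was 0.297 and 0.147, or 6.20% and 6.93% of the macrophage level of the same library. Markers of macrophages (Csf1r, C1qa, Adgre1, Cd68) reached 4.32% to 7.18% and 3.66% to 5.35% of their macrophage level in T cells, so Arg1 in T cells lay within their range in the Mir34a_F/F library and above it in the Mir34a_Mye_KO library. The ratio of Arg1 was below -0.7 in each of the 7 cell types with more than 300 cells per library, with intervals below 0. It stayed below -0.7 in macrophages, T cells and neutrophils from summed UMIs, after thinning and with totals that leave out immunoglobulin, mitochondrial and rRNA-like genes, but under these settings it reached -0.27 in mast cells (summed), -0.40 in B cells (thinned), -0.44 in epithelial cells (summed) and 0.005 in dendritic cells (thinned, 40 and 35 UMIs before). In B cells, mast cells and neutrophils Arg1 was at 4.89% to 7.31% of the macrophage level of its library, with ratios of -0.98 in B cells, -1.23 in mast cells and -0.92 in neutrophils. The part of free macrophage mRNA in these values was not tested.

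**Figure D2:**
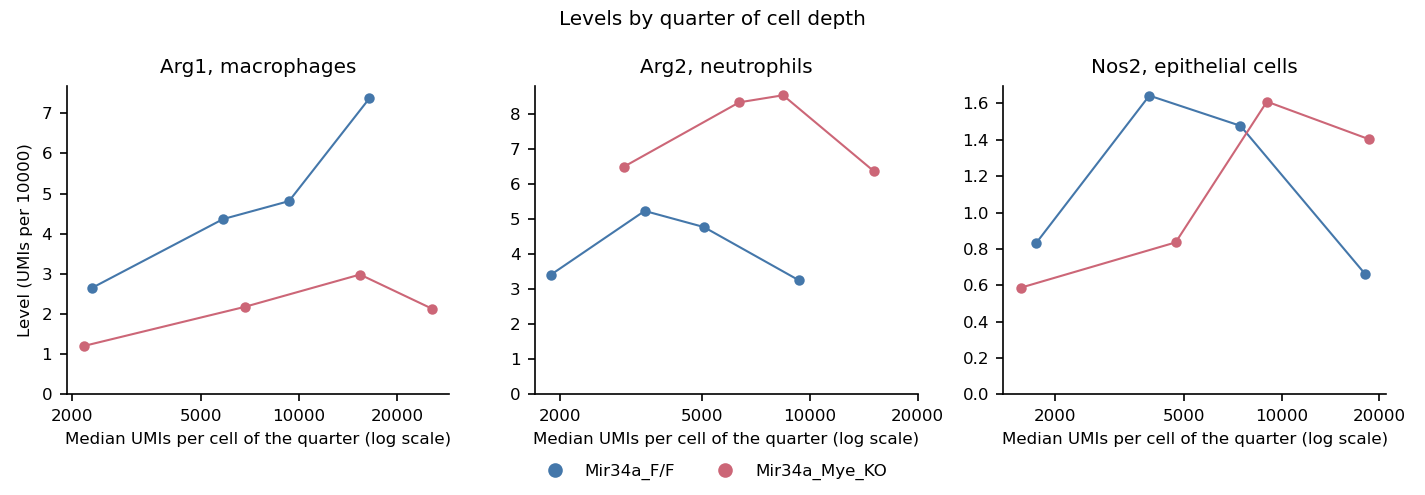
Levels (vertical axis, UMIs per 10000) of Arg1 in macrophages, Arg2 in neutrophils and Nos2 in epithelial cells, with cells of each library divided into 4 classes by depth (horizontal axis, median UMIs per cell, log scale). Arg1 of Mir34a_Mye_KO lies under that of Mir34a_F/F in all 4 classes and Arg2 above it, while the Nos2 lines cross.

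Relative to the macrophage level of each gene, epithelial cells held more Arg1 than macrophage markers, and some epithelial cells held many Arg1 UMIs. Arg1 stood at 11.8% and 16.1% of the macrophage level there, against 3.83% to 7.46% and 5.36% to 7.51% for the 4 macrophage markers. Epithelial cells with at least 10 Arg1 UMIs numbered 72 of 11614 and 57 of 9865, and 1 cell held 142 UMIs. The top 1% of epithelial cells had 43.1% and 49.0% of the Arg1 UMIs, but the level per 10000 UMIs was not limited to deep cells, with 0.607, 0.452, 0.597 and 0.613 over the depth classes of the Mir34a_F/F library and 0.406, 0.208, 0.264 and 0.491 in the Mir34a_Mye_KO library. All of these 72 and 57 cells held Epcam and Krt8 UMIs. Of macrophages, 96.2% and 94.1% also held Krt8 and 73.7% and 78.2% Epcam, so holding such UMIs does not mark a cell as epithelial. The level of Krt8, an epithelial keratin, was 75.9 and 49.1 against 26.6 and 16.6 in the other epithelial cells and 7.635 and 5.347 in macrophages. C1qa, a complement subunit made by macrophages, was at 0.403 and 0.313 in the 72 and 57 cells. This was below the 0.737 and 1.20 of the other epithelial cells and far below the 13.2 and 16.2 of macrophages. These cells were deep, with medians of 19877 and 28575 UMIs. They were chosen for their Arg1 UMIs after the values were seen, so depth is partly built into the choice.

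Arg1 of epithelial cells went with differentiation. Krt20, a keratin of differentiated colonocytes, was found in 90.3% and 96.5% of the 72 and 57 cells and in 32.9% and 33.1% of the others. After thinning all cells to 1000 UMIs, epithelial cells with a Krt20 UMI (1231 and 977 cells) had Arg1 levels of 1.56 and 0.829, against 0.490 and 0.282 in those without. The log2 differences were 1.67 (1.42 to 1.92) and 1.56 (1.18 to 1.92). In cells with a UMI of Lgr5, a stem cell receptor, the Arg1 level was instead 0.194 against 0.630 in the Mir34a_F/F library and 0.137 against 0.346 in the Mir34a_Mye_KO library, with both intervals below 0. Levels of Arg1 were thus arranged from low in Lgr5+ to high in Krt20+ epithelial cells in both libraries.

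**Figure D3:**
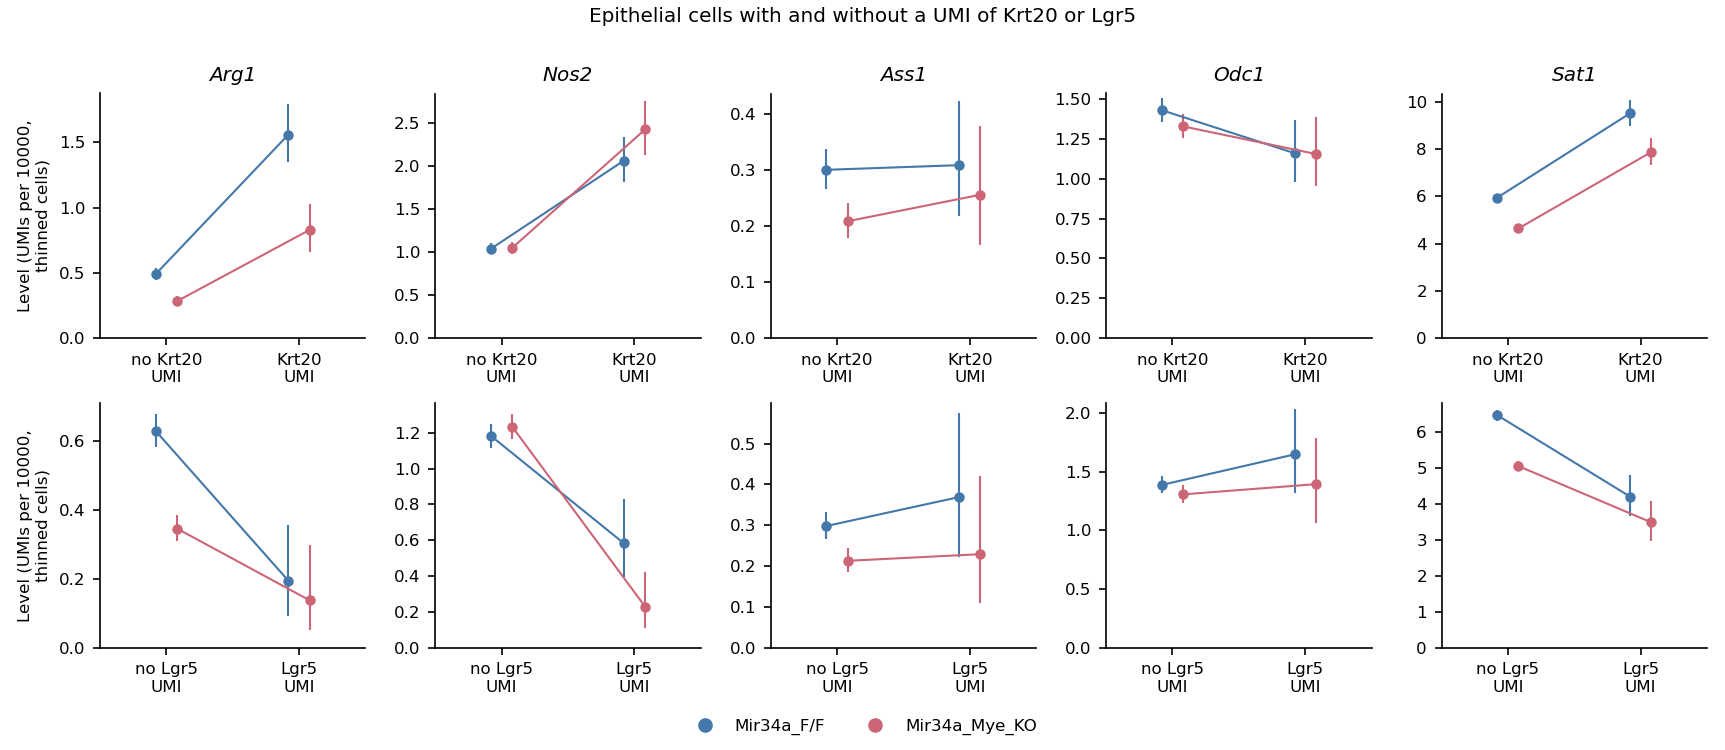
Levels (vertical axis, UMIs per 10000 after thinning each cell to 1000 UMIs) in epithelial cells without and with a UMI of Krt20 (top) or Lgr5 (bottom), blue for Mir34a_F/F and red for Mir34a_Mye_KO, with 95% counting intervals. Arg1, Nos2 and Sat1 are higher in Krt20+ and lower in Lgr5+ cells in both libraries.

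Arg2, the mitochondrial arginase, had its highest level in neutrophils and was higher there in the Mir34a_Mye_KO library. Of the Arg2 UMIs of a library, neutrophils held 44.4% and 58.9% and macrophages 33.5% and 27.6%. Neutrophils had a level of 4.17 (3.96 to 4.38, 2106 UMIs in 1053 cells) and 7.43 (7.22 to 7.64, 6795 UMIs in 1077 cells), a ratio of 0.83 (0.75 to 0.92) and a 1.78-fold difference. The share of neutrophils with an Arg2 UMI was 68% and 88.1%, or 31.2% and 46.8% once each cell was thinned. Unlike Arg1 in macrophages, Arg2 was spread over most neutrophils, since the top 10% of cells had 35.4% and 30.4% of its UMIs. Levels over the depth classes were 3.42, 5.23, 4.77 and 3.25 against 6.50, 8.33, 8.53 and 6.36, so that each class was higher in the Mir34a_Mye_KO library. Among the 4 neutrophil markers, S100a8 (610 and 426) and S100a9 (866 and 529) were lower in the Mir34a_Mye_KO library, while Csf3r (3.72 and 6.13) and Cxcr2 (1.76 and 2.58) were higher, like Arg2, and their part in the Arg2 result was not tested.

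Basophils showed the same direction for Arg2 on few cells, with 0.803 (0.465 to 1.29, 20 UMIs in 48 cells) and 2.60 (2.07 to 3.21, 118 UMIs in 40 cells) and a ratio of 1.69 (0.93 to 2.55). Macrophages had 0.913 (0.858 to 0.971) and 0.935 (0.890 to 0.981), with a ratio of 0.03 (-0.08 to 0.15). The arginases thus parted in the myeloid cells, with Arg1 lower in macrophages and Arg2 higher in neutrophils of the Mir34a_Mye_KO library. In macrophages Arg2 was at 21.9% and 12.6% of its neutrophil level, while S100a8, S100a9 and Cxcr2 were at most at 1.38% and Csf3r at 12.1% and 8.46%. In epithelial cells Arg2 was low, at 0.1002 and 0.140, and 2.40% and 1.88% of its neutrophil level. The ratio there was 0.48 (0.26 to 0.70), but 0.15 after thinning and 1.05 in cells with at least 500 mRNAs and under 10% mitochondrial content.

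Within neutrophils, cells with a UMI of the chemokine receptor Cxcr2 (152 and 237 cells) had Arg2 levels of 6.64 against 4.03 in the Mir34a_F/F library, a log2 difference of 0.72 (0.39 to 1.04). In the Mir34a_Mye_KO library they had 7.806 against 7.199, with a difference of 0.12 (-0.13 to 0.36). Without thinning the differences were 0.45 and 0.40, so that the libraries were not shown to differ in this. Siglecf, a marker of another neutrophil state, was found in only 3 and 4 thinned neutrophils and allowed no comparison.

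Nos2, inducible nitric oxide synthase, had its highest level in epithelial cells and not in macrophages, overlapping only with the 106 erythroid cells of the Mir34a_F/F library. The epithelial level was 1.15 (1.12 to 1.19, 8980 UMIs) and 1.11 (1.08 to 1.14, 12080 UMIs), with 82.8% and 83.6% of all Nos2 UMIs of a library in epithelial cells. Epithelial cells were also the largest type, with 11614 of 20312 and 9865 of 18571 cells. The ratio was -0.06 (-0.111 to -0.0015), but its direction changed with the processing. From UMIs summed over cells it was 0.52, and after thinning 0.042. The depth classes differed in shape, with 0.833, 1.64, 1.48 and 0.661 in the Mir34a_F/F library and 0.587, 0.836, 1.61 and 1.40 in the Mir34a_Mye_KO library. The Mir34a_Mye_KO level was thus lower in both shallower classes and higher in both deeper ones. Cells with at least 10 Nos2 UMIs made up 1.19% (0.9992% to 1.40%) and 3.16% (2.83% to 3.53%) of epithelial cells, a class whose median depth over all its cells was 5316 and 6623 UMIs.

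Like Arg1, epithelial Nos2 was higher in differentiated cells. Krt20+ epithelial cells had Nos2 levels of 2.06 and 2.43 against 1.04 and 1.05 without a Krt20 UMI, with log2 differences of 0.99 (0.79 to 1.19) and 1.21 (0.9965 to 1.42). Lgr5+ cells had 0.583 against 1.18 and 0.229 against 1.23. Epithelial cells with an Arg1 UMI had more Nos2 in the Mir34a_F/F library (1.61 against 1.13, difference 0.51, 0.17 to 0.82), while the interval reached 0 in the Mir34a_Mye_KO library (1.54 against 1.18, 0.39, -0.09 to 0.83). Of the 72 and 57 deep cells with at least 10 Arg1 UMIs, 51.4% and 89.5% held Nos2, against 28.2% and 30.6% of the other, shallower epithelial cells. These shares are not thinned, and the part of depth in them was not tested.

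In other cell types, Nos2 was compared with the mRNA of epithelial markers in the same cells. In T cells it stood at 28.4% and 21.5% of its epithelial level, while Epcam, Krt8, Cdh1 and Cldn7 stood at 30.5% to 37.9% and 25.3% to 31.9% of theirs. Macrophages had Nos2 levels of 0.458 (0.418 to 0.5005) and 0.285 (0.252 to 0.321), a ratio of -0.68 (-0.90 to -0.47). Once the T cell level of each library was subtracted, the ratio was -1.49, for which no interval is given. In the Mir34a_Mye_KO library the T cell level was 0.239 (0.214 to 0.266). Its interval overlapped that of macrophages, so little was left there after the subtraction. Macrophage Nos2 was at 39.7% of the epithelial level in the Mir34a_F/F library, above the 22.7% to 28.4% of the 4 epithelial markers there. It was at 25.7% in the Mir34a_Mye_KO library, where these markers were at 25.2% to 32.3%. Nos2 of macrophages thus stood above all 4 markers in the Mir34a_F/F library and within their range in the Mir34a_Mye_KO library. Its UMIs were held by few macrophages, with 31.0% and 39.8% of them in the top 1% of cells. Macrophages with at least 10 Nos2 UMIs numbered 10 and 17. Over depth classes the levels were 0.441, 0.641, 0.415 and 0.334 against 0.460, 0.242, 0.225 and 0.213, so that the shallowest class was not lower. In neutrophils Nos2 was at 44.1% against 34.7% to 41.7% for the markers and at 32.0% against 30.1% to 36.9%.

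Macrophages with a Nos2 UMI after thinning (82 and 61 cells) also had more epithelial mRNA. Epcam, an epithelial adhesion molecule, was at 4.51 against 3.04 and at 5.08 against 2.82, with log2 differences of 0.57 (0.05 to 1.05) and 0.85 (0.28 to 1.37). Csf1r, the receptor that defines macrophages, was lower in them, with -0.54 (-1.13 to -0.01) and -0.96 (-1.72 to -0.30). The part of epithelial mRNA in the macrophage Nos2 values was not tested further.

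Ass1, argininosuccinate synthase, and Asl, the lyase that follows it, rebuild arginine from citrulline. Ass1 was highest in dendritic cells, at 1.80 (1.62 to 2.00) and 1.61 (1.48 to 1.74), and in the Mir34a_F/F library macrophages overlapped with them at 1.66 (1.59 to 1.73). In the Mir34a_Mye_KO library macrophages were apart from dendritic cells, at 0.941 (0.896 to 0.989). The ratio was -0.82 (-0.91 to -0.72) in macrophages and -0.17 (-0.36 to 0.03) in dendritic cells. Ass1 in macrophages was thus 1.76-fold lower in the Mir34a_Mye_KO library, while in dendritic cells the interval reached 0. In macrophages, each of the 4 depth classes was lower for Ass1, from 1.27, 2.12, 1.62 and 1.61 to 0.655, 1.08, 1.27 and 0.760.

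T cells came next for Ass1, with 0.876 (0.815 to 0.941) and 0.661 (0.623 to 0.700). T cells with a UMI of Foxp3, the factor of regulatory T cells, had 2.25 against 0.810 and 1.34 against 0.635, with log2 differences of 1.47 (0.95 to 1.96) and 1.07 (0.40 to 1.69). Dendritic cells with a UMI of Ccr7, the receptor of migrating dendritic cells, had 2.94 against 1.27 and 3.05 against 1.04, with differences of 1.21 (0.44 to 1.98) and 1.55 (0.79 to 2.30). Ass1 was thus higher in Foxp3+ T cells and Ccr7+ dendritic cells in both libraries. It was found in 20.2% and 11.2% of Foxp3+ T cells and in 23.5% and 23.2% of Ccr7+ dendritic cells after thinning. Most thinned Ass1 UMIs of T cells, 229 and 156 against 40 and 25, lay in cells without a Foxp3 UMI. Asl was low in all cell types, at 0.400 (0.380 to 0.421) and 0.288 (0.271 to 0.306) in epithelial cells and 0.333 and 0.362 in dendritic cells. The order of cell types for Asl rested on overlapping intervals, and the erythroid cells of the Mir34a_Mye_KO library held no UMI, where 3 UMIs would give a level of 0.221.

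Slc7a2, a cationic amino acid transporter that carries arginine into cells, was mostly found in macrophages, which held 81.3% and 85.7% of its UMIs. The macrophage level was 1.18 (1.12 to 1.25, 2455 UMIs) and 0.815 (0.773 to 0.858, 2962 UMIs), a ratio of -0.54 (-0.65 to -0.43). Over depth classes the levels were 1.64, 0.639, 0.896 and 1.56 against 0.399, 1.15, 0.707 and 1.004, so that the second class went the other way. No other type with more than 300 cells per library was above 0.0687. Fibroblasts, the next in order, had 0.173 and 0.0770 from 5 and 6 UMIs, and in T cells and neutrophils the level was 3.71% to 5.60% of that of macrophages. Slc7a2 was the gene of the 10 with seed matches for miR-34a, and its level in macrophages was lower in the Mir34a_Mye_KO library. Any effect of miR-34a on Slc7a2 was not tested.

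Within macrophages, Arg1 went with Spp1 in both libraries. To a smaller degree, Ass1 did so in both libraries and Slc7a2 in the Mir34a_F/F library. Cells with a UMI of Spp1 (osteopontin, made by a tumor-associated macrophage state) had Arg1 levels of 11.4 against 3.36 and 5.35 against 1.51, with log2 differences of 1.77 (1.60 to 1.94) and 1.83 (1.56 to 2.09). Spp1+ cells were 22.6% of thinned macrophages in the Mir34a_F/F library and 13.2% in the Mir34a_Mye_KO library. Arg1 was lower in the Mir34a_Mye_KO library both in cells with and in cells without an Spp1 UMI. Slc7a2 was higher in Spp1+ cells in the Mir34a_F/F library, at 1.79 against 1.002 (difference 0.84, 0.45 to 1.22). In the Mir34a_Mye_KO library it was at 0.906 against 0.790, with an interval that held 0 (0.20, -0.40 to 0.75). Ass1 was at 1.98 against 1.49 (0.41, 0.05 to 0.75) and 1.52 against 0.954 (0.67, 0.21 to 1.11). Conversely, macrophages with an Slc7a2 UMI had more Spp1 in both libraries, 16.4 against 7.41 and 10.6 against 3.38.

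**Figure D4:**
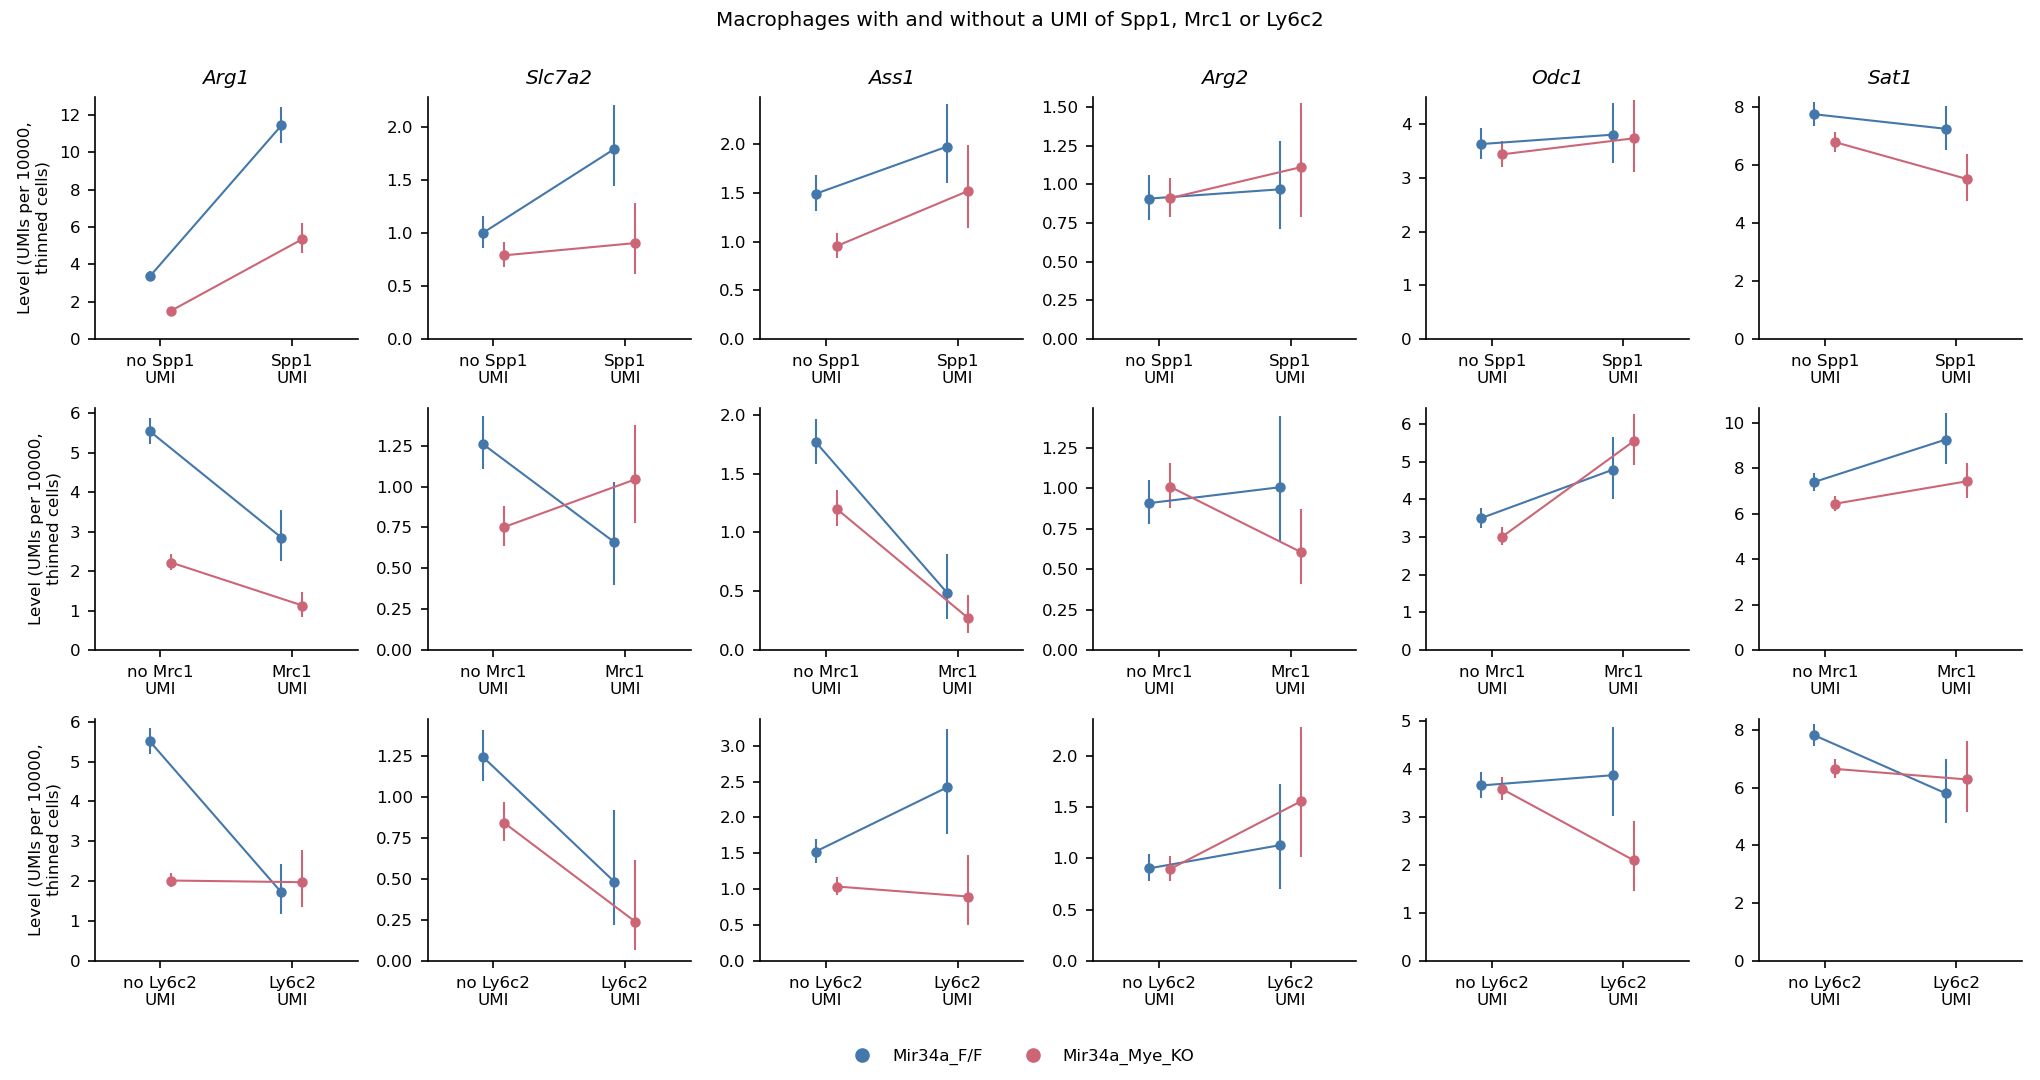
Levels (vertical axis, UMIs per 10000 after thinning each cell to 1000 UMIs) in macrophages without and with a UMI of Spp1, Mrc1 or Ly6c2 (rows), for 6 genes (columns), blue for Mir34a_F/F and red for Mir34a_Mye_KO, with 95% counting intervals. Arg1 is higher in Spp1+ and lower in Mrc1+ macrophages of both libraries, Ass1 is lower and Odc1 higher in Mrc1+ macrophages, and Slc7a2 is lower in Ly6c2+ macrophages.

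Macrophages with a UMI of Mrc1, the mannose receptor of resident-type macrophages, had lower Arg1 and Ass1 levels. Their Arg1 levels were 2.85 against 5.54 and 1.13 against 2.22, with log2 differences of -0.96 (-1.30 to -0.63) and -0.98 (-1.41 to -0.57). Ass1 was at 0.486 against 1.77 and 0.271 against 1.20, with -1.86 (-2.75 to -1.10) and -2.15 (-3.07 to -1.34). Odc1 in contrast was higher in Mrc1+ cells, at 4.79 against 3.51 and 5.55 against 3.02, and so was Sat1, at 9.27 against 7.40 and 7.43 against 6.45. Mrc1+ macrophages therefore had less Arg1 and Ass1 and more Odc1 and Sat1 mRNA than the other macrophages.

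Macrophages with a UMI of Ly6c2, a monocyte antigen, had less Slc7a2 in both libraries, 0.484 against 1.25 and 0.240 against 0.844. Arg1 was lower in Ly6c2+ cells of the Mir34a_F/F library, 1.72 against 5.51 (-1.68, -2.23 to -1.17), but not of the Mir34a_Mye_KO library, 1.98 against 2.02 (-0.03, -0.59 to 0.48). The lower Arg1 level of the Mir34a_Mye_KO library was thus seen in the macrophages without a Ly6c2 UMI. The number of Ly6c2+ cells was 186 and 167.

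Nos2 was also compared between macrophages with and without an Arg1 UMI. In those with one, the Nos2 level was 0.703 against 0.380 in the Mir34a_F/F library (0.89, 0.24 to 1.505) and 0.289 against 0.246 in the Mir34a_Mye_KO library (0.23, -1.15 to 1.36). The interval in the Mir34a_Mye_KO library was too wide to give a direction, and Nos2 there was within the range of the epithelial markers. Arg1-positive macrophages also had more Ass1, with differences of 0.61 (0.27 to 0.95) and 0.98 (0.48 to 1.45). Spp1 was at 20.5 against 4.61 and 20.2 against 2.04 in them.

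Odc1, ornithine decarboxylase, which makes putrescine and sets the pace of polyamine synthesis, was by far highest in T cells, at 11.8 (11.6 to 12.01) and 10.96 (10.8 to 11.1), a ratio of -0.10 (-0.14 to -0.07). At least 1 Odc1 UMI was present in 79.4% and 86.5% of T cells, whose median depths were 3548 and 8043 UMIs. After thinning, it was present in 53.15% and 51.49% of the T cells without a Foxp3 UMI. Dendritic cells had 3.96 and 3.55 and macrophages 3.57 and 3.62, which overlapped in the Mir34a_Mye_KO library. Foxp3+ T cells had 17.9 against 11.2 and 16.4 against 10.5, with differences of 0.68 (0.51 to 0.85) and 0.65 (0.47 to 0.82). Cd8a+ T cells had only 3.82 against 11.7 and 3.26 against 11.03, with -1.62 (-2.31 to -1.003) and -1.76 (-2.60 to -1.03). Cells with a UMI of Cd8a, a coreceptor of cytotoxic T cells, were thus low and Foxp3+ cells high in Odc1. T cells with a UMI of Mki67, a marker of dividing cells, did not differ in Odc1 by more than counting error in either library.

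Srm, spermidine synthase, and Sms, spermine synthase, make the later polyamines and were low throughout. Srm was highest in B cells of the Mir34a_Mye_KO library, at 0.277 (0.251 to 0.304), and B cells were at 0.261 (0.214 to 0.314) in the Mir34a_F/F library, where fibroblasts had 0.476 from 9 UMIs. B cells with a UMI of Mzb1, a plasma cell chaperone, had an Srm level of 0.460 against 0.185 in the Mir34a_Mye_KO library, with an interval of the difference that reached 0 in the Mir34a_F/F library (0.435 against 0.257), and Odc1 levels of 3.65 against 2.61 and 3.33 against 2.28. Sms was highest in T cells, at 0.743 (0.690 to 0.799) and 0.769 (0.730 to 0.809), next to dendritic cells with 0.607 (0.479 to 0.760) and 0.506 and mast cells with 0.592 (0.490 to 0.709) and 0.582, and in the Mir34a_F/F library these intervals overlapped that of T cells. For neither synthase did the ratio pass 1.5-fold in a type with more than 300 cells per library. From summed UMIs, however, Srm was lower past it in epithelial cells (-0.71), T cells (-0.78, and -0.68 after thinning), macrophages (-0.605) and neutrophils (-0.66), with the direction turned after thinning in macrophages (0.079) and neutrophils (0.52).

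Sat1, the acetyltransferase that starts polyamine breakdown and export, was found in most cells. Macrophages had 7.41 (7.26 to 7.57) and 6.61 (6.48 to 6.74), epithelial cells 6.17 and 4.96, neutrophils 6.13 and 5.32, and endothelial cells 5.74 (4.99 to 6.56) and 7.31 (6.39 to 8.33). Among the 7 larger cell types, Sat1 was lower in the Mir34a_Mye_KO library in each, from -0.84 (-0.99 to -0.70) in B cells to -0.17 (-0.21 to -0.12) in macrophages, though in dendritic cells it was 0.001 after thinning. In epithelial cells the Sat1 ratio of -0.32 (-0.34 to -0.29) was -0.096 from summed UMIs. With totals that leave out immunoglobulin, mitochondrial and rRNA-like genes it was -0.063 there. Of all 11 types, only endothelial cells had an interval above 0 (0.35, 0.07 to 0.63). Krt20+ epithelial cells had Sat1 levels of 9.52 against 5.95 and 7.88 against 4.64, and Nos2-positive epithelial cells 9.84 against 6.00 and 7.80 against 4.68. In B cells the direction was the reverse of Odc1, since Mzb1+ cells had 1.78 against 2.81 and 0.966 against 1.83. B cells of the libraries also differed in their makeup, with 230 and 435 Mzb1+ cells among 931 and 922 thinned cells.

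**Figure D5:**
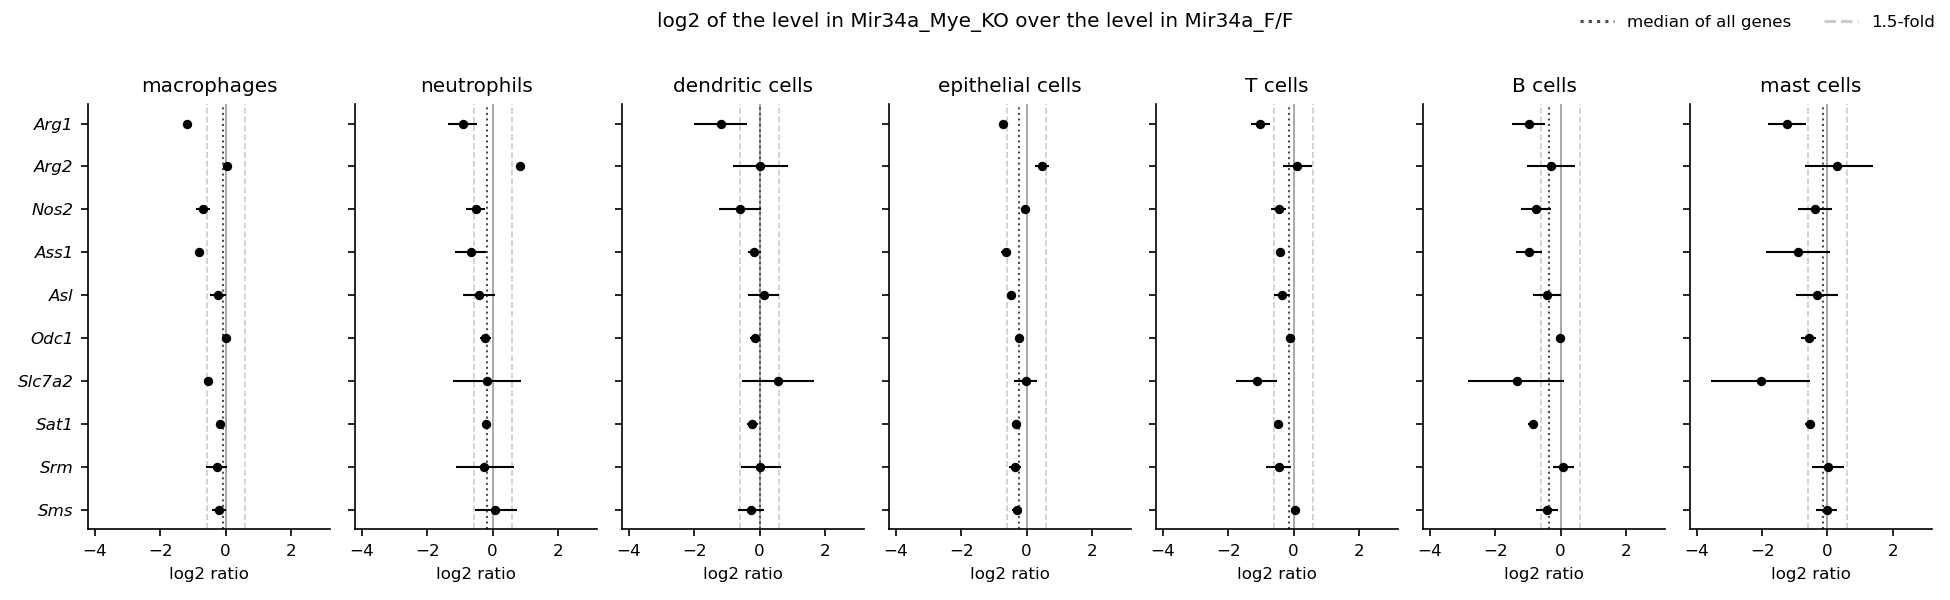
log2 of the Mir34a_Mye_KO level over the Mir34a_F/F level (horizontal axis) of each gene in the 7 larger cell types, with 95% counting intervals, the median of all genes as a dotted line and 1.5-fold as dashed lines. Arg1 lies below -0.7 in all 7 as plotted, with values nearer to or at 0 in mast, B, epithelial and dendritic cells under other scalings, and Arg2 in neutrophils is the single point beyond 1.5-fold on the positive side.

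In macrophages, Arg1, Nos2 and Ass1 were lower past 1.5-fold, and in neutrophils Arg2 was higher past it. Nos2 in macrophages did not reach 1.5-fold with totals that leave out immunoglobulin, mitochondrial and rRNA-like genes (-0.52). Of genes with at least 30 UMIs in both libraries together, 11.5% were lower by 1.5-fold or more in macrophages and 5.03% higher, and 3 of the 10 genes were lower (Arg1, Nos2, Ass1) and 0 higher. In neutrophils 18.7% of genes were lower and 6.96% higher, with 2 of the 10 lower (Arg1, Ass1) and 1 higher (Arg2). In epithelial cells 14.7% were lower and 4.57% higher, with 2 lower (Arg1, Ass1) and 0 higher. In dendritic cells 10.7% were lower and 8.18% higher, with 2 lower (Arg1, Nos2) and 0 higher, though the interval of Nos2 reached 0 (-0.60, -1.24 to 0.05). With the totals named above, Arg1 was lower and Slc7a2 higher (0.67) past 1.5-fold in dendritic cells, where 981 of 11305 genes were lower and 1252 higher. Slc7a2 there rested on 21 and 27 UMIs, its ratio of 0.57 (-0.55 to 1.66) had an interval that held 0, and from summed UMIs it was -0.78. In epithelial cells these totals left neither Arg1 (-0.53) nor Ass1 (-0.43) past 1.5-fold and put Arg2 (0.715) past it on the higher side, where 1473 of 19677 genes were lower and 1602 higher.

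The share of lower genes among all genes was largest in B cells. In B cells 31.4% of genes were lower and 6.03% higher, with 5 of the 10 lower (Arg1, Nos2, Ass1, Slc7a2, Sat1), of which Slc7a2 rested on 17 and 22 UMIs with an interval that reached 0 (-1.32, -2.85 to 0.11). With totals that leave out immunoglobulin, mitochondrial and rRNA-like genes, only Ass1 and Slc7a2 of the 10 were lower past 1.5-fold in B cells, and 2005 of 13306 genes were lower and 1592 higher. In T cells 16.4% were lower and 3.52% higher, with Arg1 and Slc7a2 lower. In mast cells 19% were lower and 6.62% higher, with Arg1 and Ass1 lower among 9 genes that reached 30 UMIs, where the interval of Ass1 reached 0 (-0.91, -1.89 to 0.07) and Arg1 was -0.27 from summed UMIs. None of the 10 was higher by 1.5-fold in these 3 types. The median ratio of all genes was -0.35 in B cells, -0.23 in epithelial cells, -0.17 in neutrophils, -0.14 in T cells, -0.14 in mast cells, -0.08 in macrophages and -0.002 in dendritic cells. The medians of the 10 genes were lower in each of these types, at -0.59, -0.31, -0.24, -0.43, -0.39 (9 genes), -0.26 and -0.16 in the same order. In B cells Slc7a2 was at 3.40% and 1.98% of its macrophage level, below all macrophage markers. Nos2 there was at 21.5% and 13.3% of its epithelial level, below all epithelial markers. Arg1 was within the range of the macrophage markers in the Mir34a_F/F library and above it in the Mir34a_Mye_KO library. The part of free mRNA of other cell types in these counts and medians was not tested.

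The pathway around these genes was followed in 3 further lists, with 17 genes of arginine and proline, 14 of nitric oxide and 21 of polyamine metabolism. In macrophages, 0 of 13, 0 of 10 and 0 of 21 tested genes were higher past 1.5-fold and 0, 0 and 2 were lower, with list medians of -0.04, 0.001 and -0.05 against -0.08 over all genes, of which 5.03% were higher and 11.5% lower. In neutrophils, 0 of 12, 0 of 9 and 1 of 16 were higher and 3, 1 and 1 lower, where 6.96% of all genes were higher and 18.7% lower. In epithelial cells, 1 of 16, 0 of 12 and 0 of 21 were higher and 1 was lower in each list, against 4.57% and 14.7% of all genes. The arginine and proline list varied between the other larger types, with 5 of 13 higher and 4 lower in B cells (6.03% and 31.4% of all genes), 3 of 12 higher and 2 lower in mast cells (6.62% and 19%), 0 of 12 higher and 3 lower in T cells (3.52% and 16.4%) and 0 of 12 higher and 4 lower in dendritic cells (8.18% and 10.7%). The nitric oxide list had 3 of 9 lower in B cells, 2 of 9 in mast cells, 4 of 9 in T cells and 1 of 8 in dendritic cells. The polyamine list had 4 of 16, 1 of 15, 1 of 18 and 2 of 16 lower in the same order. In these lists, 1 nitric oxide gene was higher in mast cells and 1 polyamine gene in dendritic cells.

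Single pathway genes differed in the cell type of their highest level. Gch1, which makes the cofactor of nitric oxide synthases, was at 8.50 (2509 UMIs) and 15.3 (12321 UMIs) in mast cells, a ratio of 0.85 (0.76 to 0.93). Glul, glutamine synthetase, was lower in the same cells, at 2.50 and 1.62 (-0.62, -0.80 to -0.45). Nos3, the endothelial synthase, was at 0.586 and 0.926 in endothelial cells on 33 and 89 UMIs (0.66, -0.07 to 1.44). Atp13a3, a polyamine transporter, was at 3.64 and 7.18 in basophils on 56 and 275 UMIs (0.98, 0.52 to 1.47). Gch1 and Glul thus differed in opposite directions in mast cells, and the interval of Nos3 reached 0.

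The genes with the highest level of their list in a cell type, on the 3′ UMI scale and not per length, were also described. Smox, spermine oxidase, was that gene of the polyamine list in neutrophils, at 4.61 (2388 UMIs) and 6.13 (5635 UMIs), a ratio of 0.41 (0.33 to 0.4965) in the same direction as Arg2. Oaz1, the antizyme that inhibits Odc1, was that gene in dendritic cells at 5.70 and 6.63, and Cygb, cytoglobin, in fibroblasts at 1.92 and 2.17. Oaz3, Eif5a2 and Gucy1b1 also passed 1.5-fold in their highest cell type, on 11 to 33 UMIs per library, with ratios of -1.39 in macrophages, -1.40 in dendritic cells and 0.81 in fibroblasts, the last with an interval that held 0 (-0.35 to 2.08). Another 8 genes (Cps1, Gamt, Pycr3, Spr, Gchfr, Sat2, Dohh, Slc18b1) did so on fewer than 30 UMIs.

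The genes most alike to the 10 were ranked by Pearson's r of log2 levels over the 22 values of cell type and library. The pseudocount was 0.1, and 7050 genes were compared. These genes were picked for their likeness and are given as a description of points that share libraries and depth. Arg1 was most alike to Apoc2 (r = 0.92), Trem2 (0.89) and Apoe (0.87), which are macrophage genes of lipid handling. Arg2 was most alike to Fpr2 (0.98), Cd300ld (0.97) and Csf3r (0.97), Nos2 to Fxyd3 (0.91) and Elovl7 (0.90), and Slc7a2 to Cndp2, Clec4a1 and Ctsa (all 0.95). Ass1 was followed by Gltp and Arl5c (0.85 to 0.88), Odc1 by H2-K1, AU020206 and H2-Q7 (0.86 to 0.88), and Sat1 by Anxa3, Thbs1 and Lasp1 (0.81 to 0.83). The genes with low levels had Drap1, Gps2 and Tdg for Asl, Gnl3, Smarcc2 and Nme1 for Srm, and Cnbp, Rpl3 and Plaat3 for Sms (0.82 to 0.88).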

How the data were processed

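Reads of both libraries (10x 3′ v3.1 chemistry) were mapped to mm10 and counted by the authors with Cell Ranger 7.2.0. They required over 200 mRNAs and under 25% mitochondrial RNA per cell and removed doublets with Scrublet. The deposited values are natural log values (UMIs scaled to 10000 per cell, plus 1), and a second table names each cell's library and type.

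The log was undone, which gave whole UMIs to within 1.5e-10 in 38883 cells. Levels are means over cells, and ratios are log2 of 2 means. Intervals use exact Poisson, binomial and conditional binomial limits on effective counts that allow for cells of unequal depth, since on simulated data plain UMI sums gave intervals that were too narrow. The simulated cells of a type differed in depth only, so the spread of a gene between cells was not covered. Folds of 1.5 were counted among genes with at least 30 UMIs. Cells were thinned to 1000 UMIs before they were split by a marker UMI. Seed matches used the longest 3′ UTR per gene in GENCODE M21. The members and lists were chosen with earlier results of these data known. Marker genes in split cells, depth classes, cells with at least 10 UMIs and percents of the highest cell type were added after seeing the data. Named are all members, pathway genes past 1.5-fold in, or leading their list in, the cell type of their highest level, and the 3 most alike genes per member, of which some genes are not reported here. Alternatives were summed UMIs, thinning, a pseudocount of 0.1, cells with at least 500 mRNAs and under 10% mitochondrial content, totals without 410 immunoglobulin, mitochondrial and rRNA-like genes, the T cell level subtracted, no minimum of 30 UMIs and 2-fold. Python 3.11.15 with numpy 2.4.6, scipy 1.17.1, pandas 2.3.3 and matplotlib 3.10.9 was used.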

Additional observations from a re-analysis of the deposited data

How the results depend on the processing

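No paired analysis was possible because each genotype had 1 library, and no replicate could be left out. The lower Arg1 in macrophages was -1.39 from summed UMIs, -1.36 after thinning and -1.09 with totals that leave out immunoglobulin, mitochondrial and rRNA-like genes. The higher Arg2 in neutrophils was 0.73 after thinning and 0.93 with these totals. Nos2 in epithelial cells changed direction to 0.52 from summed UMIs, 0.042 after thinning, 0.19 with these totals and 0.076 with the T cell level subtracted, and was -0.18 in cells with at least 500 mRNAs and under 10% mitochondrial content, so that it had no stable direction. With these totals, ratios were -0.039 for Odc1 in T cells (-0.051 in the cells with at least 500 mRNAs), -0.063 for Sat1 in macrophages and 0.42 for Srm in B cells. Directions also turned for Odc1 in epithelial cells (0.11 in cells with at least 500 mRNAs, 0.027 with these totals), Srm in epithelial cells (0.015 in cells with at least 500 mRNAs), Arg1 and Sat1 in dendritic cells after thinning (0.005 and 0.001), and Arg1 by Nr4a1 in macrophages of the Mir34a_F/F library without thinning (0.29). At 2-fold, 1 of the 10 genes was lower in macrophages (646 of 15682 genes), 0 in epithelial cells (933 of 19677) and 0 in neutrophils (681 of 12547), and 0 were higher in neutrophils (206). With these totals, 1 (Arg2) was higher and 0 lower in epithelial cells, against 1602 and 1473 of all genes. The cause of these changes was not tested. Immunoglobulin, mitochondrial and rRNA-like genes held 14.5% and 31.3% of epithelial UMIs. Of the alternative values of ratios in the 7 larger cell types, 280 stayed within the interval of the ratio, 68 moved past it, and 9 more changed the direction of a ratio whose interval did not hold 0. Ratios whose interval held 0 also changed sign, for example Odc1 in macrophages (0.019, and -0.077 after thinning). Depth limits genes with few UMIs, and Asl, Srm and Sms in particular.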
